A study of Mus musculus with 8 samples.

Results

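Genes of MHC class I antigen presentation were followed in B16-F10 cells, a mouse melanoma line known for showing little class I at its surface. They are 10 genes chosen by symbol (B2m, H2-K1, H2-D1, Tap1, Tap2, Tapbp, Psmb8, Psmb9, Erap1 and Nlrc5), and all 10 were found among the 46477 rows of the deposited table. The melanoma cells were sequenced after 24 hours on matrix that smooth muscle cells had laid down and that remained once those cells were lysed. Only the smooth muscle cells had received siRNA and the media under study, with 72 hours of siRNA followed by 72 hours in a medium labelled SFM or TCM (TCM is taken here as the tumor conditioned media of the series title). Each medium was combined with siNT, siKLF4, siFN or siKLF4-siFN, which makes 8 conditions with 1 library each. A library is named by its matrix, so TCM siFN stands for melanoma cells on matrix of smooth muscle cells given siFN and TCM. No label names separate cultures, so the tests below measure only the spread between these 8 libraries.

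MHC class I molecules show peptides from inside a cell to CD8+ T cells. The proteasome cuts proteins into peptides, the TAP transporter (Tap1 and Tap2) carries them into the endoplasmic reticulum, Erap1 trims them, and tapasin (Tapbp) helps to load them onto a heavy chain (H2-K1 or H2-D1) paired with beta-2 microglobulin (B2m). Interferon gamma raises most of these genes, adds the immunoproteasome subunits Psmb8 and Psmb9, and acts in part through the coactivator Nlrc5 at a promoter module of X and Y boxes, where the RFX complex, CREB/ATF proteins and NF-Y bind.

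Part of that module is shown because 3 of the 4 well-expressed members carry it. Whether it bears on their values was not tested. In RefSeq promoters of build GRCm38.p6, which run from 250 bases before to 50 after a start and were matched for 8 of the 10 members, B2m, H2-K1 and H2-D1 held TGACG of the X2 box core, then 20 bases of any kind, then ATTGG of the Y box core. The spacing was read off these promoters and then searched on both strands of all 32851 promoters, of which 31 (0.0944%), belonging to 27 genes, held it. Capitals mark the cores, 5′ to 3′ on the strand of each gene, at chr2:122147609-122147638 for B2m, chr17:34000359-34000388 (minus strand) for H2-K1 and chr17:35262993-35263022 for H2-D1. The H2-D1 stretch lies before the RefSeq start but inside an annotated GENCODE exon of H2-D1, whose span there begins earlier, and the other stretches lie in no annotated exon.
B2m: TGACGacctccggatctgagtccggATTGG
H2-K1: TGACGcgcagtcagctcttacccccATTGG
H2-D1: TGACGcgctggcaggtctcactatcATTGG
H2-K1 and H2-D1 shared 23 of the 30 bases, while B2m shared 13 with H2-K1 and 12 with H2-D1, the 10 core bases included. Of the 24 genes with this pair that are in the table, 16 averaged at least 1 FPKM and 2 passed the media by siFN test described below, which 7.17% of all genes passed. These were B2m, one of the promoters from which the spacing was read, and Nasp, a histone chaperone gene that was named after its values were seen.

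The 150 bases before the start are shown for B2m and H2-K1 to give the letters around the pair. Capitals mark the pair and matches to an interferon-stimulated response element (GAAA, 2 bases of any kind, GAAA, held by 3.44% of all promoters) or to the NF-kappaB consensus (8.46% of promoters), searched on both strands. The stretches are chr2:122147537-122147686 for B2m and chr17:34000348-34000497, minus strand, for H2-K1.
B2m: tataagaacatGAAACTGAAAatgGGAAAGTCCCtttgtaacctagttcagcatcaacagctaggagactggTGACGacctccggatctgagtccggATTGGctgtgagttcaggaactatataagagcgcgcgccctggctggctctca
H2-K1: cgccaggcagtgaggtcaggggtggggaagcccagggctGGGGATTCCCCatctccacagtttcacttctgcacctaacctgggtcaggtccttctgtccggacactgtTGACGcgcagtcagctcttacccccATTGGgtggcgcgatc
B2m held both kinds of match, the NF-kappaB one on the opposite strand. H2-K1 and H2-D1 held overlapping NF-kappaB matches and not these exact response element letters. Only exact letters were searched, so their absence does not show that a promoter lacks such an element. Erap1 held the response element letters near its start, and Tapbp held ATTGG without TGACG. Tap1 and Psmb9 held both cores, on opposite strands and so not as the pair above. A gamma-activated sequence (TTC, 3 bases of any kind, GAA, held by 8.30% of all promoters) was also searched and matched in no member but Psmb8. A match is a run of letters and not a measured site.

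Values are FPKM, fragments counted per kilobase of gene and scaled to library size, so levels of different genes can be set side by side. Of the 10 members, 4 averaged at least 1 FPKM and entered the tests, which covered 6917 genes. The light chain B2m was highest, with a mean of 22.3 FPKM, followed by the heavy chains H2-D1 (14.1) and H2-K1 (11.5) and the loading factor Tapbp (2.46). Peptide supply and its regulator lay far lower, with means of 0.290 for Tap1, 0.161 for Erap1, 0.0604 for Tap2, 0.0130 for Nlrc5, 0.0105 for Psmb9 and 0.00145 for Psmb8.

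B2m, on chromosome 2 (122147686 to 122153083, GRCm38), was lowest on SFM matrix made with siFN. On SFM matrix it stood at 32.5 FPKM after siNT, 25.7 after siKLF4, 14.8 after siFN and 12.5 after siKLF4-siFN. On TCM matrix it stood at 17.4 FPKM after siNT, 24.3 after siKLF4, 24.6 after siFN and 26.9 after siKLF4-siFN. The SFM libraries with siFN were lowest, TCM siNT came next, and the other 5 libraries all lay above these 3. This split was not particular to class I, since the mean of the mitosis genes described below had it too. The share of all genes with it was not counted.

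Tapbp, on chromosome 17 (33915899 to 33929292), split the libraries in the same place. For SFM the FPKM was 3.03 after siNT, 2.53 after siKLF4, 1.49 after siFN and 1.92 after siKLF4-siFN. For TCM it was 1.69 after siNT, 3.13 after siKLF4, 2.97 after siFN and 2.94 after siKLF4-siFN. The same 3 libraries were lowest, in another order. Zbtb22 overlaps Tapbp by 3422 bases on the same strand and ranged from 6.22 to 9.79 FPKM, so Tapbp values may hold reads of Zbtb22.

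H2-D1, a heavy chain gene on chromosome 17 (35262730 to 35267499), was highest where B2m was lowest. Its SFM values were 13.7 FPKM after siNT, 12.3 after siKLF4, 17.4 after siFN and 17.1 after siKLF4-siFN. Its TCM values were 14.2 FPKM after siNT, 14.3 after siKLF4, 11.1 after siFN and 12.5 after siKLF4-siFN. Both SFM libraries with siFN lay above the other 6, and TCM siNT lay among those 6. How many of all genes split the libraries this way was not counted.

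H2-K1, the other heavy chain member, also on chromosome 17 (33996017 to 34000347), was not ordered by siFN. With SFM it measured 13.2 FPKM after siNT, 10.1 after siKLF4, 9.89 after siFN and 10.004 after siKLF4-siFN. With TCM it measured 10.8 FPKM after siNT, 14.1 after siKLF4, 12.6 after siFN and 11.6 after siKLF4-siFN. SFM siKLF4, made without siFN, lay beside the SFM libraries made with it, so no level of siFN separated the libraries. Class I genes include near copies of each other. In these transcripts, 9.63% of the 50-base stretches of H2-K1 transcripts and 12.8% of those of H2-D1 occur in transcripts of other genes (24 and 103 genes, those of H2-D1 not all class I), against 2.87% of those of Tapbp (212 genes) and 0 of those of B2m, so both heavy chain values are uncertain where reads could be split.

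**Figure D1:**
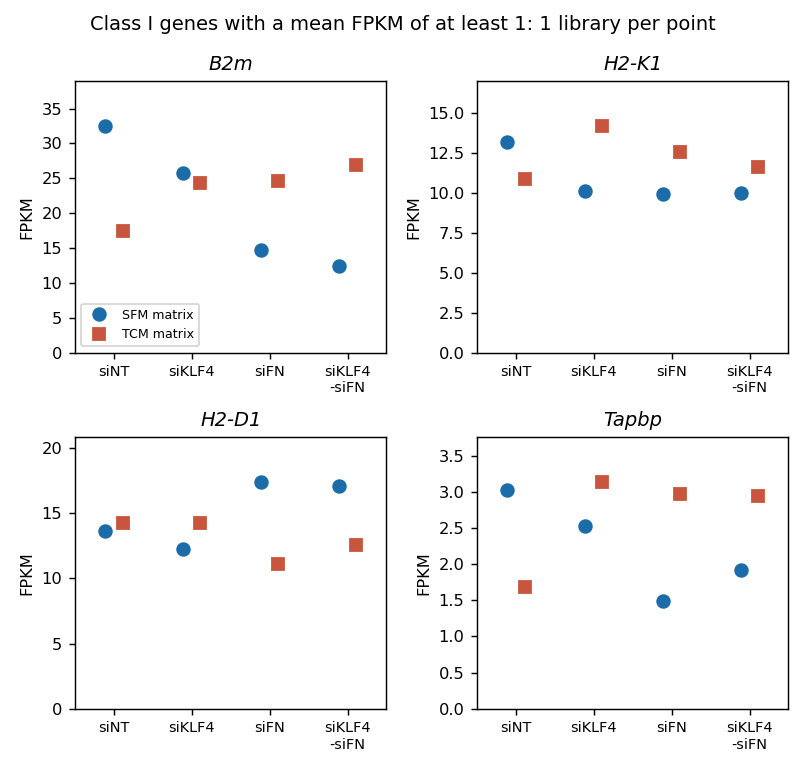
FPKM of the 4 class I genes that average at least 1 (y axis, from 0) by siRNA treatment of the smooth muscle cells (x axis), with 1 point per library, circles for SFM and squares for TCM matrix. B2m and Tapbp are lowest in TCM siNT and the SFM libraries with siFN, and H2-D1 is highest in the SFM libraries with siFN.

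The balance of light to heavy chain transcripts differed with these values. B2m divided by the sum of H2-K1 and H2-D1 was, on SFM matrix, 1.21 after siNT, 1.15 after siKLF4, 0.542 after siFN and 0.461 after siKLF4-siFN. On TCM matrix this ratio was 0.693, 0.855, 1.04 and 1.11 in the same order. The heavy chain sum stayed between 22.4 and 28.4 FPKM, so the ratio moved mainly with B2m. H2-K1 divided by H2-D1 was 0.570 and 0.586 on SFM matrix after siFN and siKLF4-siFN and 0.761 to 1.13 in the other libraries.

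The medium, siKLF4 and siFN were each compared over 4 against 4 libraries in limma, on log2(FPKM + 1), a scale that understates the change of low genes, with p-values adjusted by Benjamini-Hochberg over all genes tested. No member passed an adjusted p of 0.05 for any of them, and 0 of 4 had an unadjusted p under 0.05. Over all genes limma called 0% for each, with 6.71% of genes under an unadjusted 0.05 for the medium, 1.21% for siKLF4 and 1.21% for siFN. For the medium (TCM minus SFM), B2m differed by 0.20 ± 0.30 (SE, adjusted p = 0.870), Tapbp by 0.19 ± 0.20, H2-K1 by 0.18 ± 0.14 and H2-D1 by -0.19 ± 0.16. For siFN, B2m differed by -0.36 ± 0.30 (adjusted p = 0.993), Tapbp by -0.12 ± 0.20, H2-K1 by -0.11 ± 0.14 and H2-D1 by 0.06 ± 0.16. The median of the 4 members was 0.18 for the medium and -0.12 for siFN, against 0.02 and -0.02 over all genes.

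siKLF4 gave averages near 0 from pairs that differed. The averaged log2 differences were 0.01 for B2m, 0.16 for Tapbp and -0.02 for H2-K1, with H2-D1 within 0.01 of 0 (limma adjusted p = 1.0 for each). TCM siKLF4 held 1.40 times as much B2m, 1.86 times as much Tapbp and 1.31 times as much H2-K1 as TCM siNT, and 1.003 times as much H2-D1. SFM siKLF4 held 0.793 of the B2m, 0.765 of the H2-K1 and 0.898 of the H2-D1 of SFM siNT. Where siFN was given as well, B2m stood at 0.846 with siKLF4 on SFM and 1.09 on TCM matrix, relative to siFN alone. B2m was thus higher with siKLF4 in both TCM pairs and lower in both SFM pairs, but limma called 0 of 4 members for the media by siKLF4 interaction (B2m 0.57 ± 0.62, adjusted p = 1.0), with 0 of 4 and 1.13% of all genes at an unadjusted p under 0.05, and 0% of all genes called.

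Whether siFN went with a different change on each matrix was put to the media by siFN interaction, which is the TCM minus SFM difference with siFN less the same difference without it. B2m had an interaction of 1.35 ± 0.31 (log2 ± SE, limma adjusted p = 0.0494) and was the only one of the 4 tested members to pass. In that model 7.17% of all genes passed, which is the background for 1 of 4 members. At an unadjusted p under 0.05 the count was 3 of 4 members, beside 33.6% of all genes. Tapbp stood at 0.73 ± 0.28 (adjusted p = 0.125), H2-D1 at -0.64 ± 0.20 (adjusted p = 0.0893) and H2-K1 at 0.16 ± 0.27 (adjusted p = 0.691). The median of the 4 was 0.45, against -0.06 over all genes.

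The B2m interaction lay mostly on SFM matrix. There B2m fell with siFN by 1.04 ± 0.22 (log2, limma adjusted p = 0.0435), where 6.92% of all genes passed, 3.17% higher and 3.76% lower, and 33.5% had an unadjusted p under 0.05, as did 3 of the 4 members. Both pairs gave much the same ratio: SFM siFN held 0.455 of the B2m of SFM siNT, and SFM siKLF4-siFN held 0.485 of that of SFM siKLF4. Tapbp differed by -0.48 ± 0.20 (adjusted p = 0.142) and stood at 0.492 and 0.759 in these pairs. H2-D1 differed by 0.38 ± 0.14 (adjusted p = 0.122), with ratios of 1.27 and 1.39, and H2-K1 by -0.20 ± 0.19 (adjusted p = 0.495), with ratios of 0.750 and 0.992.

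On TCM matrix siFN gave no call in limma, for 0 of 4 members and 0% of all genes, with 0 members and 5.65% of genes at an unadjusted p under 0.05. B2m differed by 0.31 ± 0.22 (adjusted p = 0.738), from pairs that were unlike: TCM siFN stood at 1.41 times TCM siNT, but TCM siKLF4-siFN at 1.11 times TCM siKLF4. Tapbp stood at 1.76 times in the first pair and 0.939 times in the second. H2-D1 was lower in both, at 0.778 and 0.878 times.

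**Figure D2:**
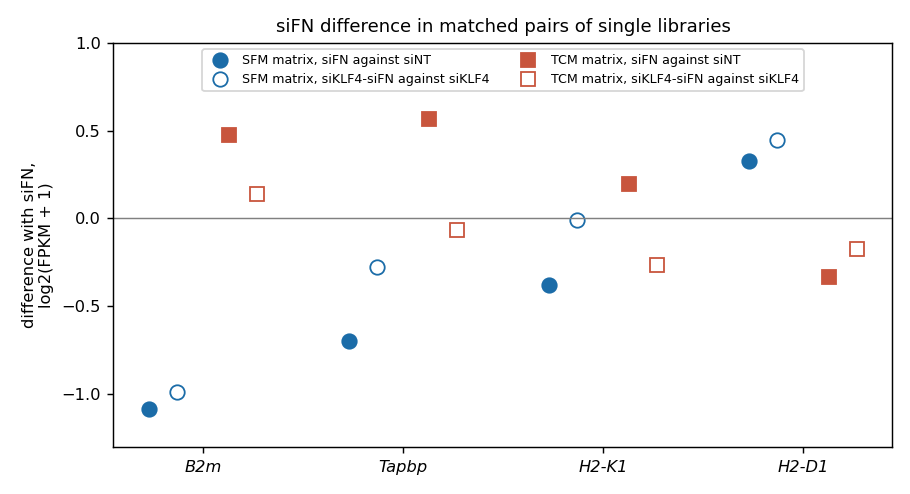
Difference with siFN on the log2(FPKM + 1) scale (y axis) for the 4 tested members (x axis) in 4 matched pairs of single libraries, circles for SFM and squares for TCM matrix, filled against siNT and open against siKLF4. B2m lies at -1.09 and -0.99 on SFM matrix and at 0.48 and 0.14 on TCM matrix, and H2-D1 has the opposite sign in all 4 pairs.

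Among matrices made with siFN, B2m was higher on TCM than on SFM by 0.87 ± 0.22 (log2, limma adjusted p = 0.0431), where 16.9% of all genes passed, 8.41% higher and 8.53% lower, and 38.6% had an unadjusted p under 0.05, as did 3 of the 4 members. B2m was 1.66 times as high in TCM siFN as in SFM siFN and 2.15 times as high in TCM siKLF4-siFN as in SFM siKLF4-siFN. H2-D1 differed by -0.51 ± 0.14 (adjusted p = 0.0541), Tapbp by 0.55 ± 0.20 (adjusted p = 0.0917) and H2-K1 by 0.26 ± 0.19 (adjusted p = 0.350). Among matrices made without siFN, the B2m difference was -0.47 ± 0.22 (adjusted p = 0.543), from a ratio of 0.535 for siNT and one of 0.944 for siKLF4, and limma called 0 of 4 members and 0% of all genes (0 members and 9.06% of genes unadjusted). For siKLF4 by siFN it called 0 of 4 members and 0% of all genes as well (0 members and 0.578% of genes unadjusted), with B2m at -0.12 ± 0.66.

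The calls of B2m lay close to the threshold. The interaction no longer passed when TCM siNT, TCM siFN, TCM siKLF4-siFN or any SFM library other than SFM siFN was left out. In these fits, each without 1 library, its size stayed between 1.04 and 1.57. Apart from the fit without TCM siNT, these fits called no gene at all for the interaction, so the loss is not particular to B2m. The siFN difference on SFM and the TCM minus SFM difference with siFN were lost in the same fits other than that without TCM siNT (adjusted p of 0.0761 to 0.200 and of 0.0543 to 0.218). TCM siFN and TCM siKLF4-siFN were the most alike of all 28 pairs of libraries.

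The 6 members averaging under 1 FPKM were tested only without a filter. Steps between low FPKM values gave approximate depths of 11600000 to 23000000 fragments per library, from which the fragments behind each value follow. Tap1, the TAP subunit on chromosome 17 (34187553 to 34197225), was the best covered, with about 10 fragments in SFM siKLF4-siFN and 44 in SFM siNT. Its FPKM on SFM matrix was 0.353 after siNT, 0.399 after siKLF4, 0.142 after siFN and 0.143 after siKLF4-siFN. Its FPKM on TCM matrix was 0.141 after siNT, 0.439 after siKLF4, 0.357 after siFN and 0.343 after siKLF4-siFN. The 3 low libraries were those in which B2m and Tapbp were lowest, and they did not overlap with the other 5. As for B2m, the share of all genes with this split was not counted. In limma without a filter, the Tap1 interaction was 0.34 ± 0.15 (adjusted p = 0.277). In the same fit none of the other 5 passed, at 0.13 for Erap1, 0.0598 for Psmb9, 0.00829 for Psmb8, -0.00323 for Tap2 and -0.0345 for Nlrc5, which had the smallest p of the 6 (adjusted p = 0.179).

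Erap1, the trimming peptidase on chromosome 13 (74639568 to 74693201), ranged from 0.0798 FPKM in SFM siKLF4-siFN (about 7 fragments) to 0.210 in SFM siFN (about 32). Tap2, on chromosome 17 (34203527 to 34216321), ranged from 0.0335 FPKM in SFM siKLF4 to 0.0945 in SFM siNT, or about 1 to 8 fragments. For neither did the libraries fall as for Tap1, since both genes had their highest or second highest value in SFM siFN.

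The immunoproteasome genes and the coactivator were at the floor of the data. Psmb8 (chromosome 17, 34197721 to 34201454) was above 0 in SFM siNT alone, at 0.0116 FPKM or about 1 fragment. Psmb9 (chromosome 17, 34181987 to 34187764) stood at 0.0299 FPKM in SFM siNT and, on TCM matrix, at 0.0178 after siFN and 0.0365 after siKLF4-siFN, at most about 3 fragments. In TCM siNT it was given as 2.6e-32, under any whole fragment, and in the other 4 libraries it was listed at 0. Nlrc5 (chromosome 8, 94434356 to 94527272) ranged from 0.00370 FPKM in TCM siKLF4-siFN to 0.0383 in SFM siFN, the latter from about 7 fragments. All 37 mitochondrially encoded rows were listed at 0 in every library, so a row at 0 throughout need not mean that RNA was absent. Psmb8 and Psmb9 were not such rows, as each was above 0 in at least 1 library. With so few fragments, their 0 values do not show that RNA was absent either.

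**Figure D3:**
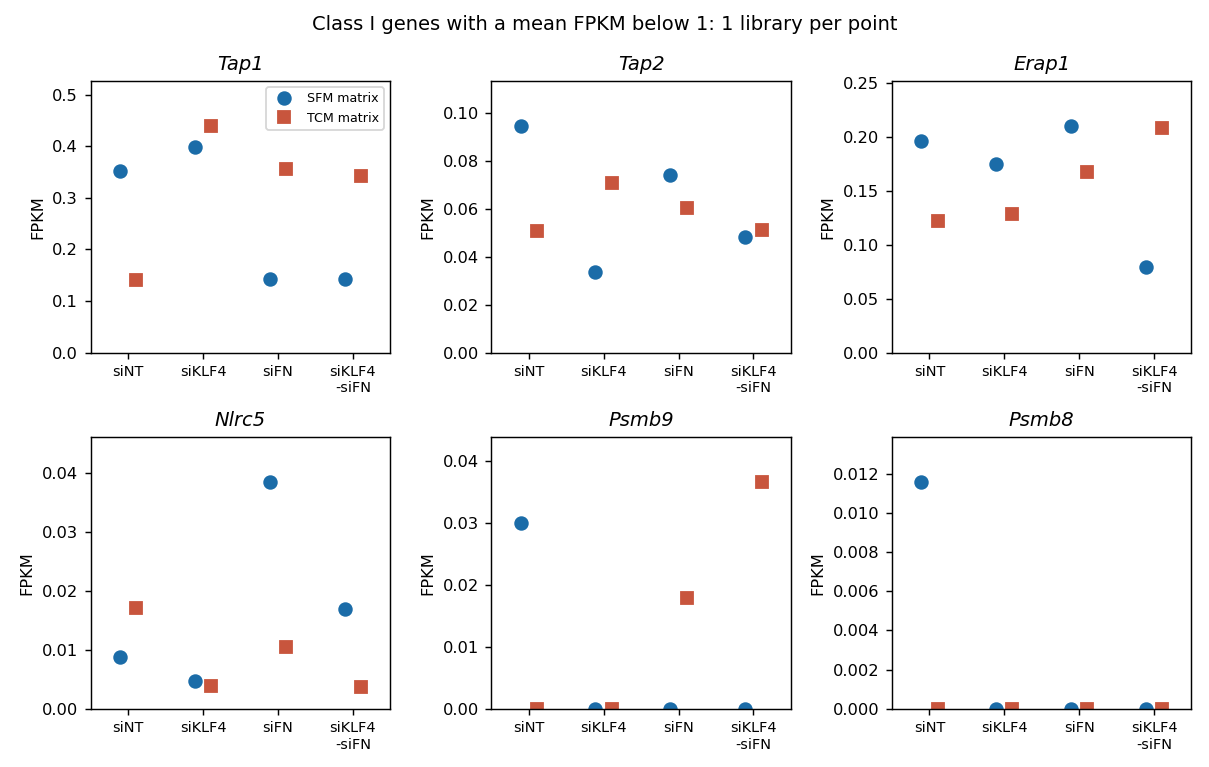
FPKM of the 6 class I genes averaging under 1 (y axis, from 0, with its own scale in each panel) by siRNA treatment (x axis), with 1 point per library, circles for SFM and squares for TCM matrix. Tap1 lies between 0.141 and 0.143 in TCM siNT and the SFM libraries with siFN and between 0.343 and 0.439 elsewhere, while Psmb8 is above 0 in SFM siNT alone.

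The wider pathway was read from lists. Of 36 further genes of class I, peptide loading and class I promoter control, 21 averaged at least 1 FPKM, and 2 passed above 0 and 2 below 0 in the media by siFN interaction, with a median of 0.26. Over all genes 3.83% passed above 0 and 3.34% below 0. Rfx5, the DNA-binding subunit of the RFX complex, passed at 0.87 ± 0.19 (limma adjusted p = 0.0480). On SFM matrix it had 3.35 FPKM after siNT, 3.87 after siKLF4, 2.32 after siFN and 1.95 after siKLF4-siFN, and on TCM matrix 2.83, 3.33, 4.15 and 3.96 in that order. Its lowest values were in the same 3 libraries as those of B2m. Of the other listed RFX, CREB and NF-Y genes, named after their values were seen, only Nfyb had its lowest values there. Rfxank and Nfya were highest in SFM siKLF4-siFN. The share of all genes with this split, or with the like splits below, was not counted. Tpp2, a large cytosolic peptidase, passed at 1.21 ± 0.27 (adjusted p = 0.0482), with 0.400 FPKM in SFM siKLF4-siFN and 1.11 to 2.14 in the others.

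Both list genes that passed below 0 have roles outside class I. Sec61a1, the core of the channel through which proteins enter the endoplasmic reticulum, stood at -1.60 ± 0.29 (limma adjusted p = 0.0419), with 36.6 FPKM after siNT, 39.1 after siKLF4, 77.8 after siFN and 89.4 after siKLF4-siFN on SFM matrix, and 65.7, 45.6, 39.3 and 38.4 on TCM matrix in that order. It was highest in the 3 libraries where B2m was lowest. H2-Ke6, which lies in the MHC but encodes a hydroxysteroid dehydrogenase, stood at -1.39 ± 0.28 (adjusted p = 0.0432). The chaperones of the loading complex did not pass: Calr, which encodes calreticulin, stood at -1.09 ± 0.27 (adjusted p = 0.0596), Canx at 0.47 ± 0.34 and Pdia3 at -0.30 ± 0.23. Calr ranged from 87.7 FPKM in SFM siNT to 170 in TCM siNT. H2-Q4, a class Ib heavy chain gene named after its values were seen, stood at 0.68 ± 0.22 (adjusted p = 0.0914), with 0.919 and 0.880 FPKM on SFM matrix after siFN and siKLF4-siFN, 1.18 in TCM siNT and 1.56 to 1.95 elsewhere.

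Among proteasome genes, the standard catalytic subunits Psmb5 and Psmb6 averaged 25.8 and 36.5 FPKM, far above Psmb8 and Psmb9, which replace them in the immunoproteasome. Psmb7 ranged from 1.36 to 1.74 FPKM and its immunoproteasome counterpart Psmb10 from 0.766 in SFM siFN to 1.52 in SFM siNT. All 16 listed standard proteasome and activator genes averaged at least 1 FPKM. The interaction was passed below 0 by 3.34% and above 0 by 3.83% of all genes. Of the 16 listed, 1 passed below 0 and none above (median -0.15). That gene was Psmb5, at -1.196 ± 0.27 (limma adjusted p = 0.0480). It had 20.1 FPKM after siNT, 18.8 after siKLF4, 30.2 after siFN and 42.5 after siKLF4-siFN on SFM matrix, and 27.1, 26.0, 21.1 and 20.3 on TCM matrix in that order, so its highest values were in the libraries with the lowest B2m. Psme4, a proteasome activator, stood at 0.86 ± 0.26 (adjusted p = 0.0831), and Psmb6 at -0.70 ± 0.24 (adjusted p = 0.102).

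Of 16 interferon receptor and JAK-STAT genes, 6 averaged at least 1 FPKM and none passed the interaction (limma, median 0.13). Irf1, a transcription factor that acts at class I promoters and is itself interferon-induced, stood at 1.03 ± 0.26 (adjusted p = 0.0613). Its FPKM was 0.437 and 0.414 on SFM matrix after siFN and siKLF4-siFN and 0.697 in TCM siNT, against 1.39 to 1.62 in the other 5 libraries. Its mean thus reached the filter through those 5 alone.

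Of 33 interferon-stimulated genes, 8 averaged at least 1 FPKM, all 8 lay above 0 in the interaction (median 1.72) and 2 passed. Over all genes 3155 of 6917 lay above 0 and 3.83% passed above 0. The filter is on the mean, so a gene can enter through its high libraries alone, and these counts are no separate support. The 2 that passed were Ifit2, an antiviral RNA-binding protein gene (1.65 ± 0.36, limma adjusted p = 0.0474), and Irgm1, an immunity-related GTPase gene (1.36 ± 0.31, adjusted p = 0.0488). Irgm1 had 0.645 and 0.372 FPKM on SFM matrix after siFN and siKLF4-siFN, 0.622 in TCM siNT and 1.67 to 1.93 elsewhere. Cxcl10, a chemokine gene, stood at 3.52 ± 1.23 (adjusted p = 0.106), with 42.8 FPKM after siNT, 38.4 after siKLF4, 15.0 after siFN and 3.82 after siKLF4-siFN on SFM matrix, 7.50 in TCM siNT and 50.8 to 53.0 in the other TCM libraries. Of 10 NF-kappaB genes, 5 were tested and none passed, and Nfkbia, an inhibitor of NF-kappaB, had the smallest p (adjusted p = 0.103). None of 10 MHC class II genes averaged 1 FPKM, and their sum was 0.277 to 0.770. Of 15 checkpoint and NK ligand genes, 11 were matched to the table and only Pvr averaged at least 1 FPKM, and it did not pass (-0.47 ± 0.17, adjusted p = 0.118), while Cd274, which encodes PD-L1, had 0.123 to 0.266 FPKM.

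Melanoma antigen genes, whose peptides class I can present, covered a wide range. Tyr had 1.32 to 4.07 FPKM, whereas Tyrp1 had 202 to 325 FPKM, Dct 35.3 to 96.5 and Pmel 40.4 to 110, with the lowest Dct and Pmel values in SFM siFN. Of 5 such genes only Tyr, which encodes tyrosinase, passed the interaction (1.33 ± 0.21, limma adjusted p = 0.0385), beside 7.17% of all genes. The median of the list was 0.78. Like those of B2m, the calls of the 8 list genes were lost in most fits that left out a library. Most of these fits called no gene at all for the interaction, so the loss is not particular to these genes. With a pseudocount of 0.1, and with no filter, none of the 8 passed in limma, where 0 and 14 of all genes did. In limma without a variance trend, Rfx5 (adjusted p = 0.0524), Tpp2 (0.0546), Ifit2 (0.0524) and Irgm1 (0.0550) did not pass.

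**Figure D4:**
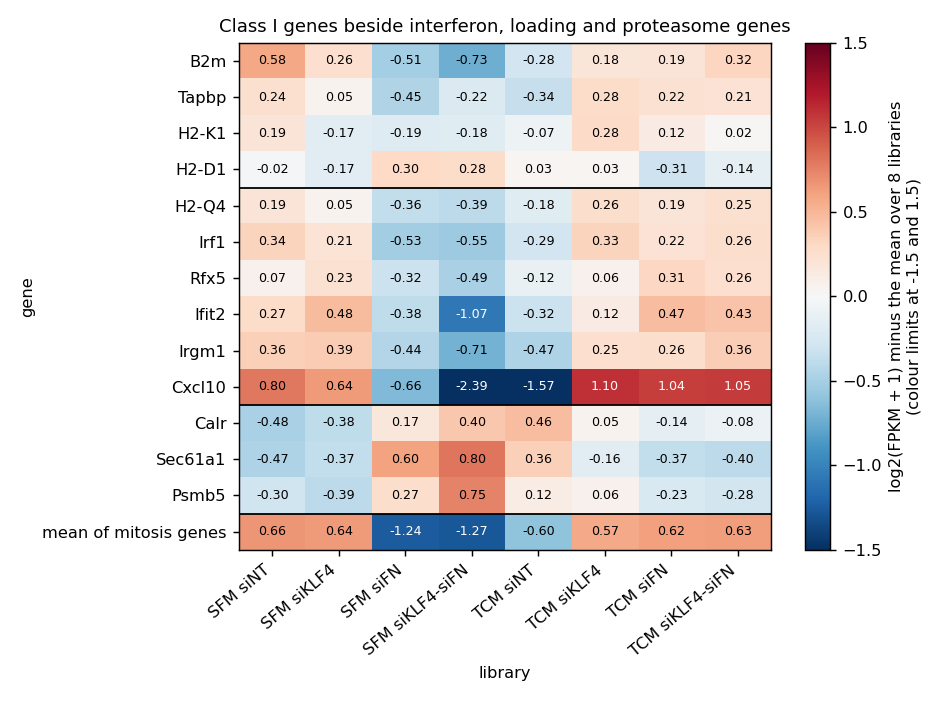
Values of log2(FPKM + 1) less each gene's mean over the 8 libraries (colour and printed number) for tested class I members, then H2-Q4 with regulators and interferon-related genes, then loading and proteasome genes (rows), with the mean of the tested mitosis genes in the last row and libraries in columns. On SFM matrix after siFN and siKLF4-siFN, B2m is at -0.51 and -0.73, H2-D1 at 0.30 and 0.28, Sec61a1 at 0.60 and 0.80 and the mitosis mean at -1.24 and -1.27.

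Other features of the libraries moved with these values. The centred mean of 17 tested mitosis genes, of 26 listed, was -1.24 and -1.27 on SFM matrix after siFN and siKLF4-siFN. It was -0.60 in TCM siNT and 0.57 to 0.66 in the other 5 libraries, the arrangement seen for B2m, Tapbp and Tap1. In the interaction 16 of the 17 mitosis genes passed above 0, against 3.83% of all genes. The filter is on the mean, so a mitosis gene can enter through its high libraries alone, and this count is no separate support. The part of the mitosis genes in the class I values was not tested. In bulk RNA, fewer cells with a transcript and less of it per cell cannot be told apart. The labelled cell type was checked against 12 melanocyte markers, of which 7 averaged at least 1 FPKM, from 2.50 for Tyr to 249 for Tyrp1, while Mitf averaged 0.531 and Ednrb was listed at 0.

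Markers of other cells were few. Of 20 leukocyte markers, Cd68 alone averaged at least 1 FPKM and 11, Cd3e and Itgam among them, were listed at 0 in every library, with a sum of 2.07 to 4.67 FPKM that was highest in TCM siNT. Of 20 smooth muscle markers, 3 averaged at least 1 (Des, Mcam and Cald1) and Acta2 was listed at 0, with a sum of 36.5 FPKM in TCM siNT and 36.4 in SFM siKLF4-siFN against 21.9 to 27.1 elsewhere. Nearly all of that sum was Mcam, which melanoma cells also express (33.0 and 33.6 FPKM in those libraries), while Cald1 was lowest in SFM siKLF4-siFN at 0.526. Their part in the class I values was not tested. Of 10 fibroblast and 10 endothelial markers none averaged 1 FPKM.

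The members did not share 1 pattern. Over the 8 libraries the Pearson correlation of log2(FPKM + 1) was 0.86 between B2m and Tapbp, 0.80 between H2-K1 and Tapbp, 0.68 between B2m and H2-K1 and -0.77 between B2m and H2-D1, a description over libraries that share treatments. Among 5468 other named genes averaging at least 1 FPKM, those most like B2m were Fundc2 (r = 0.99), Sav1 (0.99), Ugp2 (0.99), Glrb (0.99) and Dstn (0.98). Those most like the mean of the 4 members were Pradc1 (0.98), Commd9 (0.98), Fam162a (0.97), Ube2s (0.97) and Enc1 (0.97).

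Over the 12 matched pairs of single libraries, which have no replicate check, a member stood at least 1 apart on the log2 scale in 2 cases, both of them B2m. It was lower in SFM siFN than in SFM siNT, where 3.66% of all genes lay as far apart, and higher in TCM siKLF4-siFN than in SFM siKLF4-siFN, where 10.2% did. In the other 10 pairs 0 of 4 members did. The share of all genes there was 9.87% for SFM siKLF4-siFN against SFM siKLF4, 5.05% for TCM siFN against SFM siFN, 2.99% for SFM siKLF4-siFN against SFM siFN and 2.43% for TCM siNT against SFM siNT. It was 1.86% and 1.78% for TCM siFN and TCM siKLF4 against TCM siNT, and 1.32% for TCM siKLF4 against SFM siKLF4. The lowest shares were 0.781% and 0.289% for TCM siKLF4-siFN against TCM siKLF4 and against TCM siFN, and 0.723% for SFM siKLF4 against SFM siNT.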

How the data were processed

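RNA of 8 B16-F10 libraries was used, 1 per condition, with groups taken from sample titles. The authors deposited FPKM values, 1 column per library. STAR 2.4.1d, Partek and build mm10 are named, per the submitters' processing notes; annotation, counting rule and strand setting were not given in the sources used here. Opposite-strand overlaps, such as Psmb9 with Tap1 (212 bases), cannot be told apart without strand. Coordinates are from GENCODE M21 (GRCm38, the assembly of mm10) and promoters from RefSeq (GRCm38.p6).

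Genes averaging at least 1 FPKM (6917) were analysed as log2(FPKM + 1) in limma 3.58.1 (R 4.3.3) with a variance trend, two-sided, at an adjusted p of 0.05. The additive model left 4 residual degrees of freedom and each interaction model 3, with libraries that share a level standing in for replicates. The interaction model was also run on simulated data with independent noise. Such noise lacks the spread that genes share in these libraries, so that run cannot back the calls. Alternatives were a pseudocount of 0.1, no filter or a mean of at least 5, median centring, no variance trend, main effects averaged in the interaction model, and leaving out each library. Depth was the number of fragments that put most low values of single-transcript genes near whole numbers (44.7% to 48.8% within 0.05, against 10% by chance); it is approximate, as it uses merged exon lengths and was fitted on the same values.

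All 10 members are described. From each other list, up to 4 tested genes with the smallest interaction p could be named, plus 14 set genes, of which 1 is not reported here. Members and lists were chosen with earlier results of these data known.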

Additional observations from a re-analysis of the deposited data

Results flagged for a closer look

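In the interaction test, the siFN difference passed as depending on the matrix for B2m (1.35) and for 8 pathway list genes described above. That test was passed by 7.17% of all genes. With a pseudocount of 0.1 none of these genes passed, where 0 of all genes did. With no filter none of them passed either, where 14 of all genes did. The TCM minus SFM difference was larger with siFN than without it for Rfx5 (0.87), Tpp2 (1.21), Ifit2 (1.65), Irgm1 (1.36) and Tyr (1.33), and smaller for H2-Ke6 (-1.39), Sec61a1 (-1.60) and Psmb5 (-1.196). Outside those lists, 16 of 17 tested mitosis genes also passed above 0 (median 2.37), against 3.83% of all genes. Such genes can pass the filter through their high libraries alone, so that count is no separate support. Patl2 spans B2m on the opposite strand and had at most 0.00109 FPKM in these libraries.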

How the results depend on the processing

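No paired analysis was possible because each condition has 1 library and no shared replicate number. Of 934 recomputed values, 772 kept their direction and their side of the threshold. Another 93 lost their call, 16 gained one and 53 changed sign. Values that had not passed count as kept while they stay above the threshold, so the 772 do not speak for the calls. With a pseudocount of 0.1 the number of members called was 0 for the interaction (B2m 1.41, limma adjusted p = 0.0619), 0 for the siFN difference on SFM and 0 for TCM minus SFM with siFN, and with no filter it was 0 for each as well (B2m interaction adjusted p = 0.146). For TCM minus SFM with siFN, H2-D1 passed too, giving 2 members, with a mean of at least 5 FPKM and without a variance trend (-0.51, limma adjusted p = 0.0462 and 0.0443). Leaving out 1 library at a time gave 0 to 1 members for each of these 3 comparisons; B2m passed the interaction in 2 of 8 such fits (1.04 to 1.65), the siFN difference on SFM in 3 (-1.26 to -0.82) and TCM minus SFM with siFN in 3 (0.72 to 1.03). All genes called for the interaction, 496, became 0 with a pseudocount of 0.1, 14 with no filter, 251 with a mean of at least 5 FPKM, 2065 without SFM siFN, 51 without TCM siNT and 0 in 5 other such fits. For all of these the cause was not tested.

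Values that had not passed and that changed sign when 1 library was left out had these ranges. B2m: -0.0267 to 0.48 (medium), -0.27 to 0.26 (siKLF4) and -0.83 to 0.59 (siKLF4 by siFN). H2-D1: -0.12 to 0.12 (siKLF4; 0.00035 with a pseudocount of 0.1), -0.0515 to 0.19 (siFN), -0.10 to 0.44 (media by siKLF4) and -0.14 to 0.42 (siKLF4 by siFN). H2-K1: -0.14 to 0.0818 (siKLF4), -0.0903 to 0.41 (media by siFN), -0.34 to 0.25 (siKLF4 by siFN), -0.42 to 0.0272 (siFN on SFM), -0.29 to 0.22 (siFN on TCM) and -0.16 to 0.35 (TCM minus SFM without siFN). Tapbp: -0.0454 to 0.34 (siKLF4), -0.32 to 0.0620 (siFN), -0.17 to 0.74 (media by siKLF4), -0.62 to 0.41 (siKLF4 by siFN), -0.0584 to 0.55 (siFN on TCM) and -0.485 to 0.13 (TCM minus SFM without siFN). In the media by siFN interaction, Psmb7 ranged from -0.10 to 0.12, Psmb10 from -0.0170 to 0.53 and Nfkbib from -0.28 to 0.00404. Depth limits Tap2, Psmb8, Psmb9 and Nlrc5, which had at most about 8 fragments a library.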
